A study of Mus musculus with 6 samples.

Results

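The genes described are 10 carriers of the blood plasma: the 4 genes of the albumin family (Alb, Afp, Afm and Gc), the thyroxine and retinol carriers Ttr and Rbp4, the fetuins Ahsg and Fetub, and the lipocalin Ambp and the MHC-like Azgp1. They were chosen by name and were 10 of the 52323 genes in the count table. All 10 had enough counts to be tested. RNA was sequenced from damaged hepatocytes (dHeps), which were taken by collagenase perfusion from livers of mice given carbon tetrachloride (CCl4) for 12 weeks and then cultured for 16 days. The mice were 8 to 10 weeks old when the injections began and had the AAV-TBG-Cre:Rosa-LSL-tdTomato genotype, in which a viral Cre under the thyroxine-binding globulin promoter switches on tdTomato in hepatocytes. All 3 groups shared the injury, the genotype and a serum-free maintenance medium, and none was uninjured. The DMSO group received solvent. The 3C group received CID755673, a protein kinase D inhibitor, at 50 µM, with GSK429286A, a ROCK inhibitor, at 2 µM and ETC-1002, known as bempedoic acid, at 5 µM. The 5C group received the compounds of 3C together with the plant glycoside salidroside at 5 µM and forskolin, which activates adenylate cyclase, at 2 µM. A comparison of 5C with 3C therefore concerns those 2 compounds as a pair, since neither was given alone. Each group had 2 libraries, and the study calls its replicates biological. Since neither it nor the labels say whether the libraries of a group came from different animals or cultures, the p-values measure only the spread between these libraries.

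Plasma carriers are made by hepatocytes and secreted into the blood, where they bind fatty acids, hormones, vitamins, haem breakdown products and metals. Alpha-fetoprotein, encoded by Afp, is the fetal form of the albumin family. After birth Afp is switched off while Alb becomes one of the most abundant liver transcripts, and Afp can return in the injured or regenerating liver. Afm (afamin, a vitamin E carrier) and Gc (the vitamin D binding protein) are the other members of the family, and both belong to the adult liver.

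The deposited estimated counts summed to 65916573 to 69245895 per library. Replicates of a group had a Pearson's r of 0.975 to 0.977 over log2 values of all tested genes, against 0.935 to 0.969 between groups, and no library stood apart. Of 10 hepatocyte markers, 7 were called higher in each cocktail than in DMSO. The summed level of the 10 was 1332 and 1602 CPM (counts scaled to a common library size) in DMSO, 2414 and 2574 in 3C, and 1872 and 1887 in 5C. Most of this sum came from the markers not called, Krt8, Krt18 and Arg1 (means of 539, 355 and 462 CPM in DMSO). In 5C, Arg1 was lower than in DMSO (log2 fold change -0.85, adjusted p = 0.000269, edgeR). The 7 called markers rose there by 1.48 (Tat) to 5.85 (Hpd) on the log2 scale. Of 10 macrophage markers, 8 were called lower in each cocktail. Of the others, Clec4f passed in neither. Cd14 was higher in 3C (log2 fold change 0.86, adjusted p = 0.000112, edgeR) and in 5C (0.60, adjusted p = 0.000734), under the limit for a call. The summed level of the 10 ran from 11750.3 to 12901 CPM in DMSO, from 4003 to 4005 in 3C and from 2709 to 2759.7 in 5C. Lyz2 was the largest part of this sum (mean 6102 CPM in DMSO). None of the 10 was at 0, so the cultures were not free of macrophage transcripts. In such bulk RNA, fewer cells of a type and less RNA per cell cannot be told apart, and the part of the macrophage transcripts in the results for the carriers was not tested. Some markers of other cells were also called. Of 6 cholangiocyte markers, 4 were called higher in 3C and 3 in 5C, while their summed level was 2887 and 3427 CPM in DMSO, 3449 and 3643 in 3C, and 2704 and 2454 in 5C. Of 4 mesothelial markers, 1 was called higher in 3C and 3 in 5C, with sums of 678 to 795 CPM in DMSO, 902 to 998 in 3C and 1532 to 1569.7 in 5C. Of 7 stellate cell and fibroblast markers, 1 was called higher and 1 lower in 3C and 3 higher in 5C, with sums of 3833 to 4445 CPM in DMSO, 3499 to 3519 in 3C and 5636 to 5997 in 5C. Of 5 tested endothelial markers, 2 were called higher in 3C and 3 in 5C, and 1 lower in each, with sums of 326 to 341 CPM in DMSO, 86.2 to 116 in 3C and 140.2 to 218 in 5C. Each of these sums can rest on 1 gene. Lyve1, the endothelial marker called lower, had means of 315, 70.8 and 58.7 CPM in DMSO, 3C and 5C. Cdh5 (1.16, 10.5 and 58.9) and Pecam1 (0.790, 5.83 and 32.5) were called higher in both cocktails. Spp1 made up most of the cholangiocyte sum (mean 3002 CPM in DMSO), and Col1a1 most of the stellate cell and fibroblast sum (3210). The part of these cells in the results was not tested either. Markers of T and B cells were near 0, with at most 0.23 CPM summed over 5 genes. Beside these marker counts, 5.83% of all tested genes were called higher and 3.62% lower in 3C, and 7.3% and 4.42% in 5C.

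The carriers rose together in both cocktails. Their summed level was 3345 and 3505 CPM in the DMSO libraries, 13403 and 14054 in 3C, and 11683 and 16311 in 5C. The groups with a cocktail did not overlap with DMSO, and they overlapped with each other. The mean was 4.01-fold higher in 3C and 4.09-fold higher in 5C than in DMSO, while 5C was 1.02-fold the level of 3C. With 2 libraries against 2, the exact two-sided permutation test cannot go below 0.333, which was the p of both comparisons with DMSO, and it gave 1.0 for 5C against 3C.

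A gene was called where the adjusted p of edgeR's quasi-likelihood test (Benjamini-Hochberg) was under 0.05 and the absolute log2 fold change was above 1. In 3C, 9 of the 10 carriers were called higher than in DMSO, against 5.83% of all 19135 tested genes. In 5C, 8 of the 10 were called higher, against 7.3% of all genes, and none was called lower in either cocktail (3.62% of all genes were in 3C and 4.42% in 5C). At any fold change, all 10 were higher with an adjusted p under 0.05 in each cocktail, including Gc and Fetub, which were under the fold limit in 5C. Of all genes, 12.7% were so in 3C and 15.6% in 5C. The level of every carrier in every cocktail library lay above both DMSO libraries. Of all tested genes, 32.3% were higher in 5C and 30.8% higher in 3C with no overlap of this kind. The median log2 fold change of the 10 genes was 2.00 in 3C (range 0.69 to 3.17) and 1.80 in 5C (range 0.52 to 3.11), beside 0.01 and 0.00 for all tested genes. Both comparisons used the same DMSO libraries, so they are not independent of each other.

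None of the 10 was called in 5C against 3C, where 2.16% of all genes were called higher and 0.852% lower, shares at which few calls or none would be found among 10 genes. At any fold change, 1 carrier was higher in 5C with an adjusted p under 0.05 (Ttr) and 3 were lower (Afp, Gc and Rbp4), where 7.33% and 5.33% of all genes passed. The median log2 fold change was -0.12, beside -0.01 for all genes. Where groups are called separate below, this describes the libraries of single genes. The share of all genes separated between the cocktails is not reported here. Against DMSO, 32.3% of all genes in 5C and 30.8% in 3C were higher with no overlap, so separation alone is common.

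**Figure D1:**
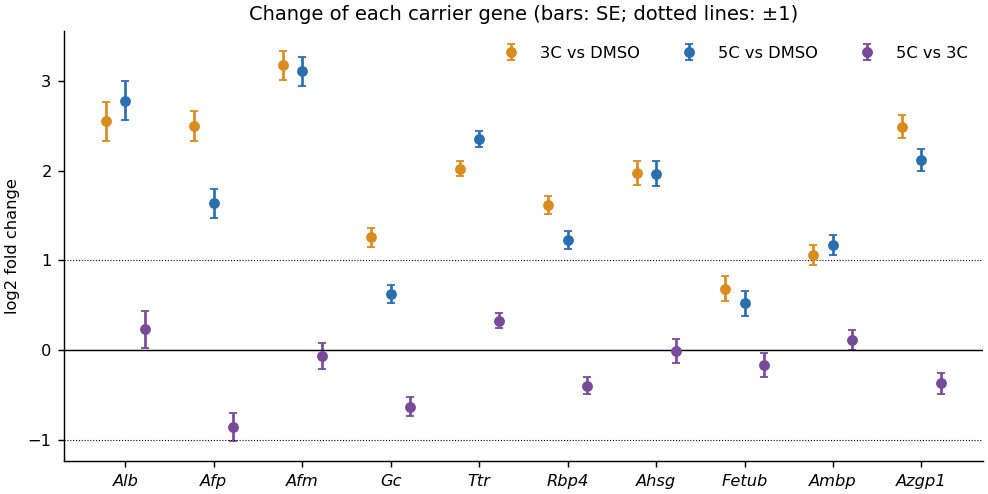
Log2 fold change of each carrier gene for each cocktail against DMSO and for 5C against 3C (points) with the standard error of the fit (bars), from 2 libraries per group. All points against DMSO lie above 0, from 0.52 to 3.17, and those of 5C against 3C lie between -0.86 and 0.33.

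Albumin, the main carrier of fatty acids and the largest contributor to plasma protein, had 1349.5 and 1196 CPM in DMSO, 7253 and 7636 CPM in 3C, and 6808 and 10681 CPM in 5C. The Alb level was thus several-fold higher in each cocktail library than in either DMSO library, and the 3C values fell within the wide range of the 5C pair. The log2 fold change was 2.55 ± 0.22 (SE, adjusted p = 0.000436, edgeR) in 3C and 2.78 ± 0.22 (adjusted p = 0.000253) in 5C. Without DMSO replicate 2, the adjusted p in 3C was 0.0539. The difference between 5C and 3C was 0.23 ± 0.20 with an adjusted p of 0.588, and its sign followed the 5C libraries: it was 0.52 (adjusted p = 0.0289) without 5C replicate 1 and -0.13 without 5C replicate 2. Albumin made up 40.3% and 34.1% of the summed carrier CPM in DMSO, 54.1% and 54.3% in 3C, and 58.3% and 65.5% in 5C.

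Afp, the fetal form, had 19.4 and 19.1 CPM in DMSO, 129 and 88.9 CPM in 3C, and 58.7 and 61.1 CPM in 5C. The 3 groups did not overlap, and 3C was the highest. The Afp log2 fold change against DMSO was 2.50 ± 0.17 in 3C (adjusted p = 4.11e-05, edgeR) and 1.64 ± 0.16 in 5C (adjusted p = 0.000243). The Afp level of 5C fell below that of 3C, with a log2 fold change of -0.86 ± 0.16 (adjusted p = 0.0121). This last difference did not pass without 5C replicate 1 (adjusted p = 0.0956) or without 5C replicate 2 (0.0944), and it reached -1.10 without 3C replicate 2, where it was called.

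The fetal form was set against the adult form within each library, where the library total cancels. Per unit length, Afp stood at 1.42% and 1.57% of the Alb FPKM (a level that is scaled for gene length and library depth) in DMSO. The 3C libraries had 1.76% and 1.15%, and those of 5C had 0.851% and 0.565%. Both 5C libraries lay below the 4 others, and the 2 DMSO libraries lay between the 2 of 3C. On the log2 scale of CPM, the Afp to Alb ratio was lower by -1.11 in 5C than in DMSO and by -1.03 than in 3C (exact permutation p = 0.333 for each, the smallest that 2 against 2 libraries allow), and it differed by -0.08 between 3C and DMSO (p = 1.0). The ratio depended on the adult gene used. Against the sum of the 9 other carriers, Afp was 0.584% and 0.548% in DMSO, 0.970% and 0.636% in 3C, and 0.505% and 0.376% in 5C, so that 3C lay above DMSO and 5C below both on this scale.

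**Figure D2:**
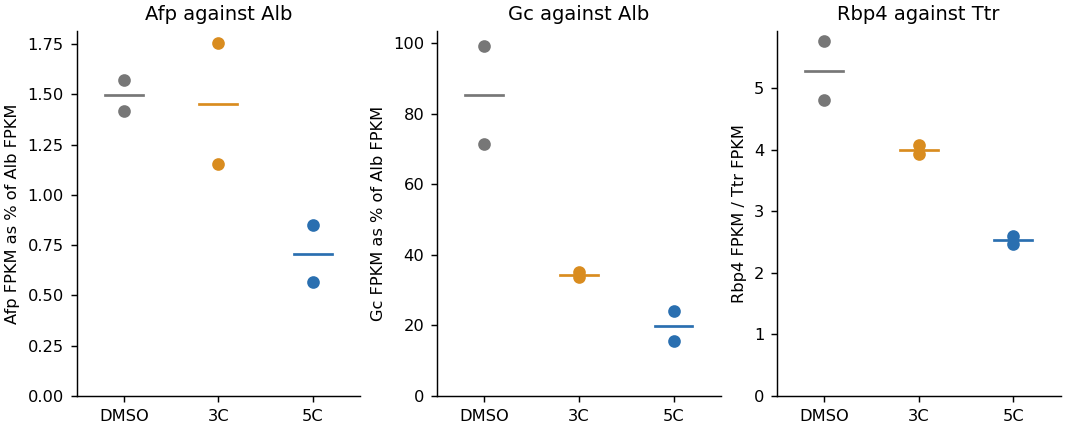
Ratios within each library (points) and their group means (lines), from FPKM: Afp as a percentage of Alb, Gc as a percentage of Alb, and Rbp4 divided by Ttr. The 5C libraries are the lowest in all 3 panels, and for Afp against Alb the DMSO pair sits between the 3C libraries.

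Afm, which carries vitamin E and is also needed to keep secreted Wnt proteins soluble, was the least abundant carrier, with 2.12 and 2.32 CPM in DMSO, 21.7 and 18.4 CPM in 3C, and 17.5 and 20.7 CPM in 5C. The Afm log2 fold change was 3.17 ± 0.16 in 3C (adjusted p = 3.4e-06, edgeR) and 3.11 ± 0.16 in 5C (adjusted p = 1.76e-06), and -0.07 ± 0.14 between the cocktails (adjusted p = 0.853). These were the largest of the 10 against DMSO in this fit, but not on the scale of log2(FPKM + 1), where limma gave Afm 2.33 in 3C and 2.24 in 5C and gave Alb 2.56 and 2.71. The mean Afm level in DMSO was 0.955 FPKM, so that adding 1 shrinks its fold change. On the scale of log2(FPKM + 0.1), limma gave Afm 3.08 in 3C and 2.99 in 5C, above Alb with 2.56 and 2.72.

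Gc, which transports vitamin D metabolites and binds actin released from damaged cells, had 852 and 1052 CPM in DMSO, 2166 and 2375 CPM in 3C, and 1452 and 1483 CPM in 5C. The 3 groups were separate, in the order DMSO, 5C, 3C. Its log2 fold change was 1.25 ± 0.10 in 3C (adjusted p = 3.52e-05, edgeR) but 0.62 ± 0.10 in 5C (adjusted p = 0.00163), under the limit for a call. It was lower in 5C than in 3C by -0.63 ± 0.10 (adjusted p = 0.0045). In DMSO the Gc FPKM was 71.3% and 99.3% of that of Alb, and it was 33.7% and 35.1% in 3C and 24.1% and 15.7% in 5C, with no overlap between groups (exact permutation p = 0.333 for each pair of groups).

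The 4 albumin family genes lie on mouse chromosome 5 (GRCm39). Alb spans 90608647 to 90624696, Afp 90638584 to 90656766 and Afm 90666791 to 90701558, all on the plus strand, with 13.9 kb between the first pair and 10.025 kb between the second. Gc, on the minus strand from 89561689 to 89605757, ends 1003 kb before Alb. To describe the promoters of the carriers, the 250 bases before the canonical start of each of 21594 protein-coding genes (GENCODE vM39) were searched on both strands for short motifs. The canonical start is that of 1 reference transcript per gene, and in Alb and Rbp4 it lies inside the full span of the gene, which other annotated transcripts extend upstream. TATAAA, the consensus letters of the TATA box, was in 3 carriers (Afp, Afm and Rbp4) and 11.95% of all promoters. CCAAT was in 7 carriers and 36.49% of all promoters, and TGTTTAC, a core of FOXA sites, was in none of the carriers and 2.71% of all. TATAAA begins 18 bases before the start in Afp, 13 in Afm and 11 in Rbp4, and it was not found in Alb. CCAAT begins 76 bases before the start of Alb, and on the other strand it lies at 35 bases in Alb and at 109 bases in Afp. No matches of different motifs overlapped in the carriers. A match is a description of the letters and not a measured binding site.

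The 125 bases before the canonical start of the 3 clustered genes and of Rbp4, the other carrier with TATAAA, are shown 5′ to 3′ on the strand of the gene, so that the fetal and adult genes can be compared. Capitals mark the exact letters TATAAA and CCAAT, the latter reading ATTGG where it lies on the other strand. Variants of either are not marked.
Alb (chr5:90608624-90608748, plus strand): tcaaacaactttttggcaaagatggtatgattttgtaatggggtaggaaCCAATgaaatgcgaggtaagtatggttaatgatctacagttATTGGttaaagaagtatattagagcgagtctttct
Afp (chr5:90638459-90638583, plus strand): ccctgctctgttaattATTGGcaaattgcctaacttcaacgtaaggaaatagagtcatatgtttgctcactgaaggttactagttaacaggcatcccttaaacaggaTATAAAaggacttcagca
Afm (chr5:90666666-90666790, plus strand): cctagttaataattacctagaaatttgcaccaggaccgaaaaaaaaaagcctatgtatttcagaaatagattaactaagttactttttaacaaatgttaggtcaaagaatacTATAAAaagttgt
Rbp4 (chr19:38113277-38113401, minus strand): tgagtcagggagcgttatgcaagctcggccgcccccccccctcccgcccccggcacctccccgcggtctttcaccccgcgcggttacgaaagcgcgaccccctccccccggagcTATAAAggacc

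The genes around the Alb, Afp and Afm cluster were examined for the same pattern. Within 500 kb of the Alb start lie 12 protein-coding genes that are not carriers, of which 10 were tested. Of these, 3 were called higher and 1 lower in 3C (Albfm1, Cxcl5 and Cxcl1 against Pf4), and 2 higher and 1 lower in 5C (Albfm1 and Cxcl5 against Pf4). Over all genes, 5.83% were called higher and 3.62% lower in 3C, and 7.3% and 4.42% in 5C. Cox18 and Ankrd17, on one side of Alb, and Rassf6 and Mthfd2l, on the other, were called in neither. The chemokine genes farther along went both ways: Cxcl5 had log2 fold changes of 3.38 in 3C and 1.65 in 5C, Cxcl1 1.59 and 0.90, and Pf4, a platelet and macrophage chemokine, -2.19 and -3.22. The calls of Albfm1, the gene next to Afm, rest on very few counts, as it was at 0 in both DMSO libraries and at most 0.510 CPM in the others.

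**Figure D3:**
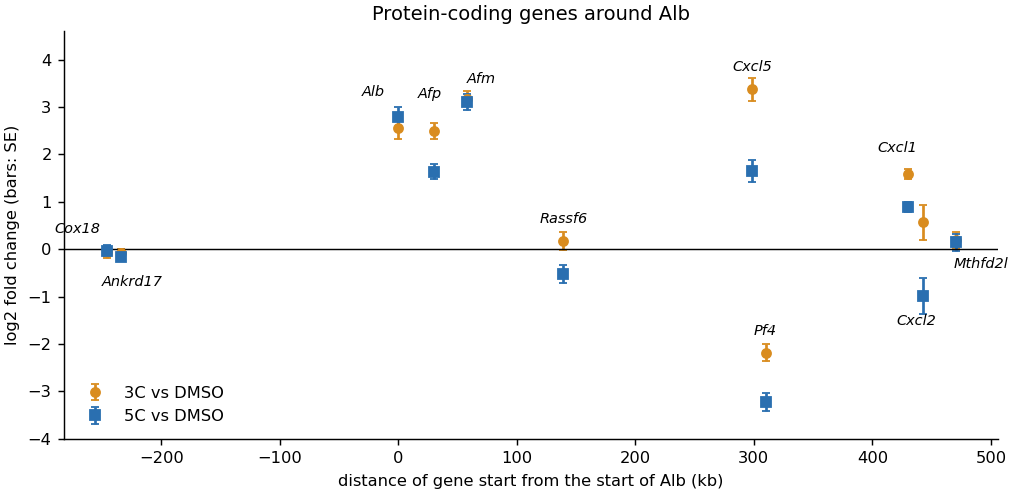
Log2 fold change against DMSO in 3C (circles) and 5C (squares), with SE, for tested protein-coding genes by the distance of their start from that of Alb; genes under 1 CPM in every library are not drawn. Alb, Afp and Afm lie between 1.64 and 3.17, and Cox18, Ankrd17, Rassf6 and Mthfd2l lie between -0.53 and 0.19.

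The retinol and thyroxine carriers went in different directions between the cocktails. Ttr (transthyretin), which carries thyroxine and holds the retinol-binding protein in the circulation, had 68.1 and 62.8 CPM in DMSO, 276 and 255 CPM in 3C, and 315 and 353 CPM in 5C. Rbp4, the retinol-binding protein itself, had 297 and 308 CPM in DMSO, 948 and 912 CPM in 3C, and 633 and 782 CPM in 5C. The groups were separate for both genes, with Ttr the highest in 5C and Rbp4 the highest in 3C. The log2 fold change of Ttr was 2.02 ± 0.09 in 3C (adjusted p = 1.71e-06, edgeR) and 2.35 ± 0.09 in 5C (adjusted p = 3.77e-07), with 0.33 ± 0.08 in 5C against 3C (adjusted p = 0.0332). The log2 fold change of Rbp4 was 1.62 ± 0.10 in 3C (adjusted p = 7.95e-06) and 1.23 ± 0.10 in 5C (adjusted p = 2.25e-05), with -0.39 ± 0.10 in 5C against 3C (adjusted p = 0.0300). Neither difference between the cocktails passed in every subset of the libraries. That of Ttr had an adjusted p of 0.109 without 3C replicate 1, 0.268 without 3C replicate 2 and 0.197 without 5C replicate 2, and that of Rbp4 0.194 without 3C replicate 1, 0.124 without 3C replicate 2 and 0.124 without 5C replicate 1. The ratio of Rbp4 to Ttr FPKM was 4.81 and 5.76 in DMSO, 3.93 and 4.07 in 3C, and 2.47 and 2.61 in 5C, with no overlap between any pair of groups (exact permutation p = 0.333 for each).

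The 2 fetuins are neighbours on chromosome 16, with Ahsg from 22710027 to 22718201 and Fetub from 22736127 to 22758528, both on the plus strand and 17.9 kb apart. Ahsg (fetuin-A), which binds calcium phosphate and keeps it from precipitating, had 468 and 517 CPM in DMSO, 1839 and 2027 CPM in 3C, and 1645 and 2200.3 CPM in 5C. The Ahsg log2 fold change was 1.97 ± 0.14 in both 3C (adjusted p = 2.9e-05, edgeR) and 5C (adjusted p = 2.08e-05), and -0.01 ± 0.13 between them (adjusted p = 0.984). Fetub (fetuin-B), an inhibitor of astacin-type proteases that protects the egg coat, had 50.0 and 57.7 CPM in DMSO, 81.7 and 91.5 CPM in 3C, and 66.6 and 87.8 CPM in 5C. It was called in neither cocktail, with log2 fold changes of 0.69 ± 0.14 in 3C (adjusted p = 0.00797) and 0.52 ± 0.14 in 5C (adjusted p = 0.0242). These did not pass without DMSO replicate 1 (adjusted p = 0.0544 in 3C and 0.131 in 5C), without 3C replicate 2 (0.0543 in 3C) or without 5C replicate 2 (0.109 in 5C).

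The value of Fetub also depended on the deposited table. Relative to Alb and to the DMSO mean, 1 FPKM of Fetub stood for 1.26 times as many counts in each 3C library, against 0.978 to 1.01 in the other 4 libraries, while the other 8 carriers ranged from 0.928 to 1.03. With limma on log2(FPKM + 1), the log2 fold change of Fetub in 3C was 0.36 (adjusted p = 0.0935), and the difference between 5C and 3C turned from -0.17 ± 0.14 to 0.13. Fetub has 21 annotated transcripts of 798 to 2382 bases, and 937 of its 3400 exon bases overlap a gene on the other strand, Gm30611. Since the use of strand in the counting is not given in the sources used here, reads of the pair cannot be told apart.

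The other carriers with overlapping genes on the opposite strand shared between 70 exon bases (Ttr) and 293 (Ahsg) with any such gene, and Alb, Afp and Ambp had none.

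Ambp encodes a precursor that is cut into alpha-1-microglobulin, a haem-binding lipocalin, and bikunin, a protease inhibitor that is joined to the heavy chains of the inter-alpha-inhibitors. It had 208 and 254 CPM in DMSO, 496 and 467 CPM in 3C, and 561 and 479.8 CPM in 5C. The Ambp log2 fold change was 1.06 ± 0.11 in 3C (adjusted p = 0.00015, edgeR) and 1.17 ± 0.11 in 5C (adjusted p = 6.32e-05), with 0.11 ± 0.11 between the cocktails (adjusted p = 0.622). Azgp1 (zinc-alpha-2-glycoprotein), an MHC-like protein associated with lipid mobilisation, had 30.9 and 35.9 CPM in DMSO, 191 and 183 CPM in 3C, and 127 and 163 CPM in 5C. Its groups were separate, with 3C the highest. The Azgp1 log2 fold change was 2.49 ± 0.13 in 3C (adjusted p = 5.03e-06) and 2.12 ± 0.12 in 5C (adjusted p = 6.12e-06), and that of 5C against 3C was -0.37 ± 0.12 and did not pass (adjusted p = 0.0853).

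Levels of different genes were compared per length, by FPKM. In DMSO, the order was Alb (568 ± 74.8 FPKM, SD, n = 2), Gc (477 ± 48.5), Ahsg (308 ± 14.9), Rbp4 (263 ± 6.28), Ambp (165 ± 15.9), Ttr (50.1 ± 5.21), Fetub (39.6 ± 1.84), Azgp1 (23.4 ± 1.36), Afp (8.45 ± 0.498) and Afm (0.955 ± 0.00933). No neighbours in that order overlapped. In 3C, Alb had 3337 ± 161 FPKM and Ahsg, with 1229 ± 103, had moved above Gc, with 1149.9 ± 88.8, although the replicates of this pair overlapped. Azgp1 (133 ± 2.16 FPKM) had moved above Fetub (51.1 ± 4.63), whose replicates overlapped those of Afp (48.2 ± 11.9). In 5C, Alb had 3794 ± 1059.9 FPKM, Ahsg 1192 ± 205 and Gc 723 ± 14.5, the order of the 10 genes was that of 3C, and no neighbours overlapped. Afp and Afm were the 2 lowest in all 3 groups.

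**Figure D4:**
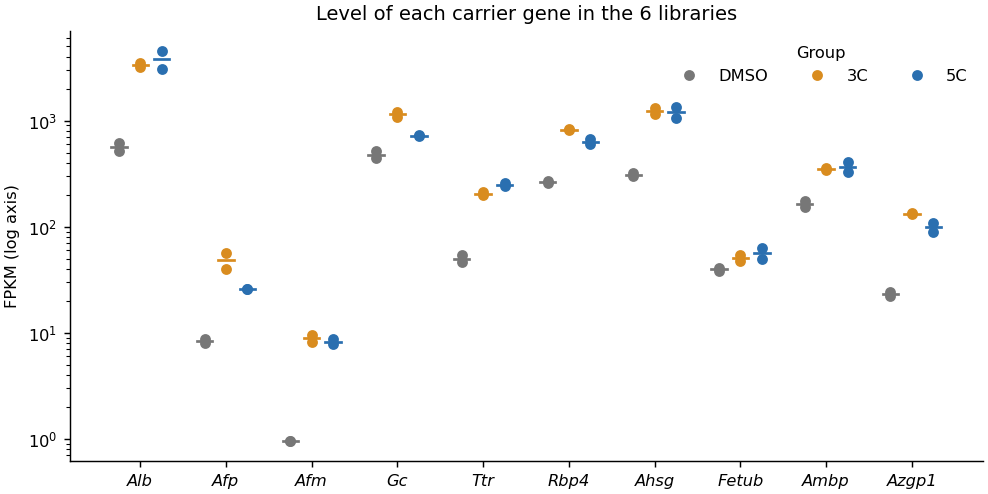
FPKM of each carrier gene in the 6 libraries on a log axis; points are libraries and short lines are group means (n = 2). Alb is the highest and Afm the lowest in every group, and Gc lies close to Alb in DMSO and below Ahsg in 5C.

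Genes whose log2 CPM over the 6 libraries followed Alb and Afp most closely were listed, as a description, among 10246 genes of at least 10 CPM on average. Among the 5 closest to Alb were Gstz1 (Pearson's r = 0.999), Slc37a4 (0.998), F2 (0.997) and Acot4 (0.997). F2, the prothrombin gene, had 254 and 266 CPM in 3C and 258 and 324 CPM in 5C, against 47.5 and 44.0 CPM in DMSO. The 5 closest to Afp were Gstt2 (0.999), Cisd3 (0.995), Cyb5b (0.995), Cyp39a1 (0.995) and Mettl7a1 (0.994). Cyp39a1, an oxysterol hydroxylase of bile acid synthesis, had 58.8 and 57.5 CPM in DMSO, 162 and 149 CPM in 3C, and 108 and 117 CPM in 5C. Among the carriers, Ahsg (0.993) and Ttr (0.991) were closest to Alb and Gc (0.807) was farthest, while Rbp4 (0.981) and Azgp1 (0.967) were closest to Afp, whose own r with Alb was 0.898. The 6 libraries form 3 pairs, so these coefficients mostly reflect the order of the group means.

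Transport proteins outside the 10 were examined as a list of 11, of which 10 were tested (Shbg, the sex hormone carrier, was near 0). Of these, 7 were called higher in 3C (all genes: 5.83%) and 9 in 5C (all genes: 7.3%), and none lower (3.62% and 4.42%). Trf (transferrin), the iron carrier, was the most abundant in the cocktails, with 1513 and 1482 CPM in DMSO, 5118 and 5518 CPM in 3C, and 6201 and 7558 CPM in 5C. The haemoglobin binder Hp (haptoglobin) had log2 fold changes of 3.21 in 3C and 3.66 in 5C, the haem binder Hpx (haemopexin) 2.47 and 2.86, the copper carrier Cp (ceruloplasmin) 1.98 and 1.92, and Apoh, which binds phospholipids, 2.80 and 3.51. Serpina7, the thyroxine-binding globulin whose promoter drives the Cre, had 7.35 and 9.86 CPM in DMSO, 48.6 and 37.7 CPM in 3C, and 50.4 and 54.4 CPM in 5C. The acute-phase drug carrier Orm1 set the cocktails apart: it had 3.04 and 2.13 CPM in DMSO, 5.46 and 7.78 CPM in 3C, and 135 and 124 CPM in 5C. Against 3C, the Orm1 level of 5C had a log2 fold change of 4.29 ± 0.21 (adjusted p = 0.000135, edgeR). Its close paralog Orm2, with which it could share reads, was also called higher in 5C than in 3C, at 7.62 and 5.46 CPM against 0.296 and 0.591 CPM. The cortisol carrier Serpina6 stayed under 1 CPM in every library. The selenium carrier Selenop was the exception in direction, with log2 fold changes of -0.60 in 3C (adjusted p = 0.000231) and -0.92 in 5C (adjusted p = 1.41e-05), both under the limit for a call.

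The bikunin encoded by Ambp circulates bound to heavy chains. Of 6 related genes, Itih1 to Itih5 and Tnfaip6, 5 were called higher in 3C (all genes: 5.83%) and 3 in 5C (all genes: 7.3%). Itih3 had 12.2 and 6.77 CPM in DMSO, 54.8 and 69.7 CPM in 3C, and 377 and 448 CPM in 5C. The 5C cocktail had more Itih1, Itih3 and Itih4 than 3C, by called log2 fold changes of 1.02, 2.73 and 1.22, where that of Ambp was 0.11. Itih2 and Itih5 went the other way, with -0.52 (adjusted p = 0.00554) and -0.45 (adjusted p = 0.0452), and Tnfaip6, the enzyme that transfers heavy chains to hyaluronan, did not pass in any comparison.

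Other secreted hepatocyte proteins (apolipoproteins, clotting factors and their inhibitors, complement) were taken as a list of 15. All were called higher in 3C (all genes: 5.83%) and 14 in 5C (all genes: 7.3%), with medians of 2.76 and 3.77 on the log2 scale. Apob was the gene not called in 5C, at 0.99 (adjusted p = 0.0308). Between the cocktails, 8 of the 15 were called higher in 5C (all genes: 2.16%) and none lower (all genes: 0.852%). The median was 1.00, against 0 of the 10 carriers called and a median of -0.12. Those called were Apoa2, Apoc3, Fga, Fgb, Fgg, Plg, Serpinc1 and Hrg, with Apoc3 at 2.36 the highest. For Hrg, the histidine-rich glycoprotein, the level was 0.518 and 0.430 CPM in DMSO, 12.2 and 11.2 CPM in 3C, and 37.6 and 47.2 CPM in 5C. No test of the difference between the lists was made.

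**Figure D5:**
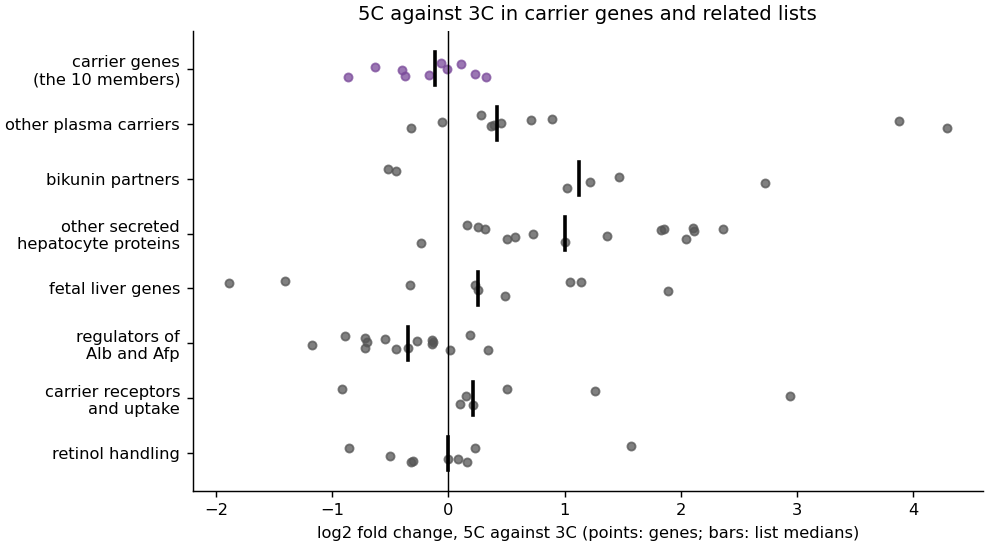
Log2 fold change of 5C against 3C for each tested gene (points, spread vertically at random for visibility) of the 10 carriers and of 7 related lists, with list medians as bars; genes of very low level are included. The carriers lie between -0.86 and 0.33 around a median of -0.12, and the other secreted hepatocyte proteins have a median of 1.00.

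Other genes of the fetal liver were compared with Afp as a list of 10, of which 9 were tested (Lin28b was at 0 in all libraries). In 3C, 3 were called higher (all genes: 5.83%), and in 5C, 4 (all genes: 7.3%). H19, the imprinted noncoding RNA, which like Afp is silenced after birth, had 3.84 and 3.47 CPM in DMSO, 118 and 75.7 CPM in 3C, and 150 and 77.3 CPM in 5C. Its log2 fold change was 4.73 ± 0.51 in 3C (adjusted p = 0.00661, edgeR) and 4.96 ± 0.52 in 5C (adjusted p = 0.00518), and 0.23 ± 0.41 between them (adjusted p = 0.827). Igf2, the fetal growth factor of the same locus, had 2.84 and 2.10 CPM in DMSO, 58.1 and 32.7 CPM in 3C, and 49.2 and 23.1 CPM in 5C, with log2 fold changes of 4.19 (adjusted p = 0.0108) and 3.87 (adjusted p = 0.0118). The replicates of both genes differed widely within each cocktail, and the 2 cocktails overlapped. Gpc3, a heparan sulphate proteoglycan of the fetal liver, was called higher in both cocktails and higher in 5C than in 3C (log2 fold changes 1.70, 2.74 and 1.05). The imprinted gene Mest was called higher in 5C against DMSO (2.35, adjusted p = 1.96e-06) and against 3C (1.89), and its log2 fold change in 3C was 0.46 (adjusted p = 0.0221). Igf2bp1 was called lower in 5C than in 3C, at 0.714 and 1.07 CPM against 3.28 and 3.33 CPM. Between the cocktails, 2 of the 9 fetal genes were called higher in 5C (all genes: 2.16%) and 1 lower (all genes: 0.852%). Their median log2 fold change was 0.26.

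Regulators known to act on Alb or Afp were given as a list of 15. In 3C, 5 were called higher (all genes: 5.83%). In 5C, 3 were called higher (all genes: 7.3%) and 1 lower (all genes: 4.42%). Zhx2, Zbtb20 and Zfhx3 are repressors of Afp in the adult liver. Zhx2 had 24.9 and 25.8 CPM in DMSO, 29.9 and 30.9 CPM in 3C, and 26.1 and 28.9 CPM in 5C, and passed in no comparison. Zbtb20 had 107 and 73.5 CPM in DMSO, 80.4 and 85.3 CPM in 3C, and 71.9 and 95.2 CPM in 5C, and also passed in none. Zfhx3 had 49.7 and 32.5 CPM in DMSO, 29.9 and 31.4 CPM in 3C, and 27.5 and 28.1 CPM in 5C, with -0.42 in 3C (adjusted p = 0.131) and -0.56 in 5C (adjusted p = 0.0465). None of this trio was called in either cocktail, although Zfhx3 lay below both DMSO libraries in each. The part of these repressors in the level of Afp was not tested.

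Among activators, Hnf4a, the main nuclear receptor of the hepatocyte programme, had 98.6 and 91.4 CPM in DMSO, 255 and 243 CPM in 3C, and 199 and 192 CPM in 5C. It was called higher in both cocktails (1.39 and 1.04) and was lower in 5C than in 3C (-0.35, adjusted p = 0.0119, edgeR). Foxa3, Nr5a2 and Onecut1 were called higher in 3C, and of these Foxa3 and Onecut1 were also called in 5C. The pioneer factor Foxa2 was called lower in 5C, by -1.06 against DMSO and -1.18 against 3C.

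Of 7 receptors and uptake proteins of the carriers, 2 were called higher in each cocktail (all genes: 5.83% in 3C and 7.3% in 5C) and 1 was called lower in 3C (all genes: 3.62%). Fcgrt, the receptor that rescues albumin from degradation, had 294 and 317 CPM in DMSO, 142 and 154 CPM in 3C, and 158 and 160 CPM in 5C. Its log2 fold change was -1.04 ± 0.07 in 3C (adjusted p = 1.5e-05, edgeR) and -0.94 ± 0.07 in 5C (adjusted p = 1.7e-05), where Alb rose. Fcgrt is also made by macrophages, most of whose listed markers fell in the same libraries, and the part of these cells was not tested. The 2 called higher, Asgr1 and Asgr2, form the asialoglycoprotein receptor, which clears desialylated plasma proteins. Asgr1 had 0.296 and 0 CPM in DMSO, 2.01 and 2.72 CPM in 3C, and 16.5 and 19.8 CPM in 5C.

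Of 9 genes that handle the retinol carried by Rbp4, 2 were called higher in each cocktail (all genes: 5.83% in 3C and 7.3% in 5C). Lrat, which esterifies retinol for storage and marks stellate cells, had 6.89 and 8.11 CPM in DMSO, 30.2 and 33.9 CPM in 3C, and 14.5 and 21.0 CPM in 5C. Stra6l, the liver receptor for Rbp4, was called higher in 3C, at 45.0 and 47.9 CPM against 16.6 and 16.3 CPM in DMSO, and stood at 33.6 and 32.0 CPM in 5C. Both followed the order of Rbp4, highest in 3C. Cyp26a1, which breaks down retinoic acid, was called higher in 5C against DMSO (2.22) and against 3C (1.57), at 8.65 and 5.25 CPM.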

How the data were processed

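Bulk RNA-seq was deposited for 6 libraries, which were grouped by their labels as DMSO, 3C and 5C with 2 each. The authors sequenced paired reads and mapped them to GRCm39. The submitters' processing notes name featureCounts, Subread and DESeq2, and the aligner, annotation release and use of strand are not given in the sources used here. The deposited count table holds 52323 genes and is treated as estimated counts, because low values of 4 (4816 entries) and 8 (2323 entries) were more frequent than their neighbours and the number of units per fragment is unknown. The deposited FPKM, in which the authors took account of gene length and sequencing depth, were used for levels between genes and as an alternative.

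Genes kept by filterByExpr (19135) were fitted with edgeR 4.0.16 (R 4.3.3), with TMM normalization, all 3 groups in 1 model, 3 residual degrees of freedom and the quasi-likelihood test with Benjamini-Hochberg adjustment over all tested genes. The common biological coefficient of variation was 18.4%. CPM are TMM-normalized. SE are those that the F statistic implies. Adjusted p-values in the text come from edgeR unless another tool is named. Values per library were compared by two-sided exact permutation tests. Alternatives covered RLE and upper quartile normalization, filters, DESeq2 1.42.0, limma 3.58.1 on log2(FPKM + 1) or log2(FPKM + 0.1), a replicate block and leaving out each library.

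The genes, lists and tests were chosen with earlier results of these data known. Named genes were the 10 carriers and, of each list, called genes, the 3 most abundant and the extremes of 5C against DMSO, of which a selection is printed and some genes are not reported here; H19, Igf2, Zhx2, Zbtb20, Zfhx3 and Hnf4a were always given, as were the 5 genes most correlated with Alb or Afp. Values of Fetub per FPKM, Afp against the other carriers and the neighbours of Alb were chosen after the data had been seen. Positions and promoters come from GENCODE vM39 on GRCm39, which matched all 10 carriers. Of the steps, the edgeR fit was tested on simulated counts. At most 1.2% of the 50-base words of a carrier's longest transcript occurred in another gene.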

Additional observations from a re-analysis of the deposited data

How the results depend on the processing

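Across 16 alternatives, 449 of 480 fold changes of single carriers kept their direction and their side of adjusted p = 0.05. In 5C against DMSO 2 became weaker, in 3C against DMSO 5, and in 5C against 3C 10 became weaker, 5 became stronger and 9 reversed. The number of carriers called higher was 8 in 5C whichever library was left out, and 8 to 9 in 3C. In 5C against 3C, 0 to 1 carrier was called lower when a library was left out (Afp, without 3C replicate 2), and without a limit on the fold change 1 was higher and 3 were lower. Leaving out a library moved the log2 fold change of 5C against 3C from -0.13 to 0.52 for Alb, from -0.20 to 0.059 for Afm, from -0.24 to 0.18 for Ahsg, from -0.38 to 0.016 for Fetub and from -0.010 to 0.21 for Ambp, so no direction is given for these 5 genes. With limma on log2(FPKM + 1) and on log2(FPKM + 0.1), Fetub was 0.13 in that comparison, and Ttr had an adjusted p of 0.112 and 0.108. Azgp1 in that comparison passed with DESeq2 (adjusted p = 0.0286), with limma on log2(FPKM + 0.1) (0.0465) and without 5C replicate 2 (0.0204).

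The Afp to Alb ratio in 3C against DMSO ran from -0.38 to 0.23 on the log2 scale when a library was left out. Relative to the other 9 carriers, it was 0.47 in 3C and -0.38 in 5C against DMSO. The log2 difference of the summed carrier level between 5C and 3C was -0.042 by plain library totals and -0.047 by FPKM, and ran from -0.23 to 0.25 when a library was left out, and in 3C against DMSO it was 1.94 by FPKM. By counts per kilobase of the longest transcript in place of FPKM, Gc ranked 2, Rbp4 3 and Ahsg 4. With all genes of at least 1 count, 1 fetal liver gene was called higher in 5C than in 3C and 1 receptor higher in 3C than in DMSO, and with DESeq2 also 1 receptor.

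Replicate numbers did not pair the libraries (deviations of same-numbered libraries had r of -0.03, 0.00 and 0.02). With the replicate block the comparisons with DMSO called 8 carriers for 5C and 9 for 3C, that of the cocktails called 0, and Azgp1 in 5C against 3C had an adjusted p of 0.048. The causes of these changes were not tested. With 2 libraries per group, a fold change under the limit may go undetected.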
